A study of Mus musculus with 16 samples.

Results

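The miR-34 family was examined in dorsal skin of mice that carried or lacked Ppard, the gene of the nuclear receptor PPARβ/δ, with and without chronic UVB. The members were mmu-miR-34a, mmu-miR-34b-5p and mmu-miR-34c, 3 of the 577 miRNAs on the array, taken by name. They were chosen from the signals and detection calls of the same 16 arrays in the same 4 groups, so their levels and differences are given here as a description, with no test. The groups were Ppard+/+ (WT) and Ppard-/- (KO) skin without irradiation, and skin of both genotypes irradiated over 12 weeks (UVB, 70 mJ/cm2 each time), with 4 arrays each. All mice were adult hairless SKH-1 females on the mixed background SKH1-C57/Bl6-SV129, and both genotypes came from the same litters. The RNA came from dorsal skin with all its cell types, in which fewer cells of a type and less RNA per cell cannot be told apart.

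miR-34 miRNAs are among the best known direct targets of p53, the transcription factor that responds to DNA damage, including the damage done by UVB. Mature miR-34 pairs through its seed with mRNAs of cell cycle and survival genes and lowers their output. miR-34a comes from a gene of its own, whereas miR-34b and miR-34c are cut from a shared precursor transcript. The miR-449 family carries the same seed and is known from multiciliated epithelia.

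The seed, bases 2 to 8 from the 5′ end, is what joins the family, and it is set in capitals below in the mature mouse sequences of RefSeq (GRCm38.p6). The sequences are shown because they share the seed and differ after it. Of the 3 members, miR-34a and miR-34b-5p matched a mature entry of that table, and miR-34c did not. Of 1679 mature mouse names in that table, 4 carried this seed. The table held no mature entry of miR-449b either, so these 4 need not be the whole seed family.
mmu-miR-34a-5p: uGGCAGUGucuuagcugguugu
mmu-miR-34b-5p: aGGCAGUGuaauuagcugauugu
mmu-miR-449a-5p: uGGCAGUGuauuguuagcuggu
mmu-miR-449c-5p: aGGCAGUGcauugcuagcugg
Aligned from the 5′ end with no gap, miR-34b-5p matched miR-34a-5p at 11 of 22 bases and miR-449a-5p matched it at 15 of 22. The miR-34b-5p entry has 23 bases, and the stretch after its seed is shifted against that of miR-34a-5p. A count with no gap therefore does not rank these sequences by likeness. The array's miR-34a is the 5p strand. The opposite strands of the miR-34b and miR-34c hairpins carried another seed, which they had in common.
mmu-miR-34b-3p: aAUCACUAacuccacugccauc
mmu-miR-34c-3p: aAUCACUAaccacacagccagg

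In the coordinates of the scanner files (build mm9), the probes of miR-34a lay at chr4:149442584-149442603. Those of miR-34c lay at chr9:50911181-50911200 and those of miR-34b-5p at chr9:50911715-50911736, 515 bases further along. In the RefSeq annotation, Mir34b and Mir34c both fell within the spans of Btg4 and Hoatz, and no other gene spanned Mir34a.

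All values below are total gene signals, the background-subtracted brightness summed over the spots of a miRNA, brought to a common distribution by quantile normalization and given in array units. For differences, signals under a floor of 19.4 units were set to that floor before log2 was taken. The irradiated arrays were all on one slide and the others all on a second slide, so UVB and slide cannot be told apart in any comparison of irradiated with non-irradiated skin. The UVB slide had a higher mean local background (127.0 against 64.6 units), a wider spread of negative controls (mean SD 9.72 against 4.04 units) and fewer detected miRNAs per array (184 to 206 against 216 to 266). On the UVB slide, Ppard+/+ filled row 1 and Ppard-/- row 2, so genotype and row cannot be told apart there either. The arrays' total signal ranged from 170979 to 395200 units. All 7 keratinocyte miRNAs of a marker list were detected on every array of at least 1 group, the filter used for all tests.

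miR-34b-5p was low in non-irradiated skin and several times higher after UVB in both genotypes. Without UVB its normalized signals in Ppard+/+ skin were 37.4, 23.7, 18.3 and 27.7 units, and in Ppard-/- skin 13.4, 27.1, 13.6 and 26.3 units. After UVB they were 109.9, 92.2, 105.8 and 95.6 units in Ppard+/+ skin and 78.1, 72.9, 64.9 and 60.2 units in Ppard-/- skin. Every irradiated array lay above every non-irradiated one, and the irradiated genotypes did not overlap each other, with Ppard-/- lower. It was detected on all 16 arrays, although 1 Ppard+/+ and 2 Ppard-/- arrays without UVB fell under the floor.

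miR-34c, its partner on the shared transcript, had the same order of groups nearer to background. Without UVB its normalized signals were 25.2, 12.8, 13.8 and 17.5 units in Ppard+/+ skin, and 7.26, 15.02, 6.65 and 13.99 units in Ppard-/- skin. After UVB they were 66.2, 66.2, 80.5 and 72.0 units in Ppard+/+ skin and 50.4, 53.9, 39.6 and 38.3 units in Ppard-/- skin. Again the irradiated arrays lay above all others and the irradiated genotypes did not overlap. Without UVB the scanner software detected miR-34c on 3 of 4 Ppard+/+ arrays and 2 of 4 Ppard-/- arrays, and 3 and 4 arrays lay under the floor. After UVB it was detected on all 8, and it entered the fit through these groups alone.

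miR-34a was detected on every array, and its groups overlapped in each comparison of genotype or of UVB within a genotype. Its normalized signals without UVB were 1611, 1036, 1284 and 1316 units in Ppard+/+ skin and 826, 1036, 965 and 1193 units in Ppard-/- skin. After UVB they were 1357, 1516, 1316 and 1476 units in Ppard+/+ skin and 1611, 1476, 1284 and 1126 units in Ppard-/- skin. The lowest group mean was that of non-irradiated Ppard-/- skin. Scaled by the 75th percentile instead, the Ppard-/- groups lay just apart, at 703 to 1160 units without and 1166 to 1563 units after UVB.

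**Figure D1:**
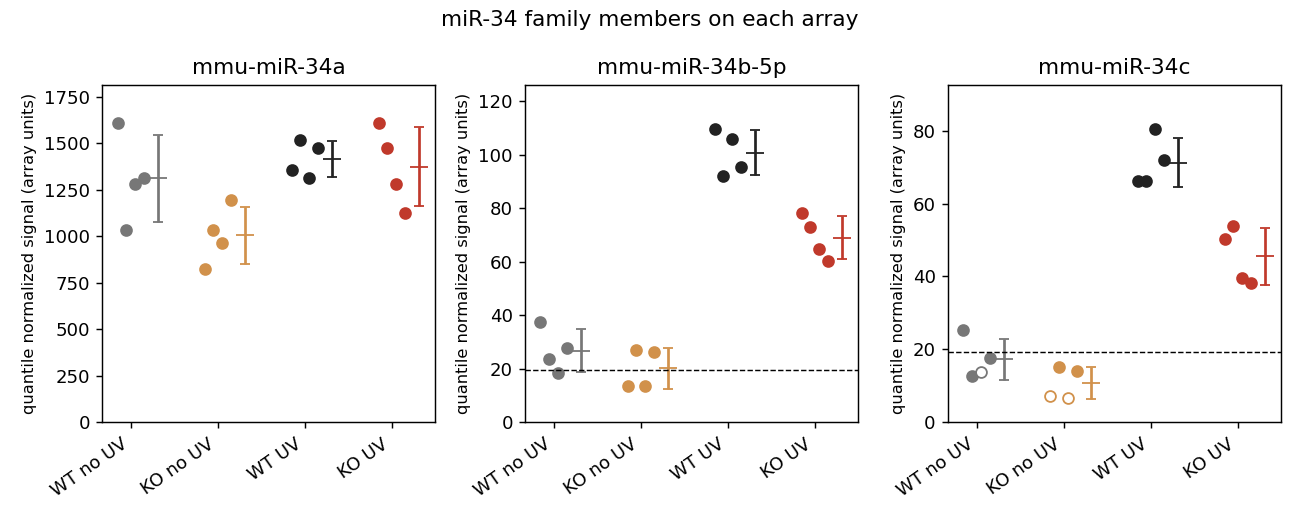
Quantile normalized total gene signal (array units, linear axis from 0) of the 3 members on each array, by group; filled points were detected and open points were not, the bars are the mean ± SD (n = 4), and the dashed line is the floor of 19.4 units. For miR-34b-5p and miR-34c all 8 irradiated arrays sit above all 8 others and Ppard-/- (KO) sits below Ppard+/+ (WT) after UVB, whereas the miR-34a groups overlap between genotypes and, within a genotype, with and without UVB.

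The signals of both dim members were a few times their software error in non-irradiated skin. They were better resolved after UVB in Ppard+/+ skin, whereas in Ppard-/- skin the ranges with and without UVB overlapped. For miR-34c the ratio of signal to error was 2.44 to 4.79 without and 6.99 to 8.28 after UVB in Ppard+/+ skin. In Ppard-/- skin it was 1.75 to 4.85 without and 3.59 to 5.44 after UVB. For miR-34b-5p it was 3.22 to 6.35 in non-irradiated and 8.42 to 9.79 in irradiated Ppard+/+ skin. For miR-34a it stayed between 13.2 and 13.7.

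The first question was how chronic UVB changed these miRNAs in Ppard+/+ skin. The log2 difference, irradiated minus not, was 1.94 ± 0.18 (SE) for miR-34b-5p, the highest of the 228 miRNAs that passed the detection filter. That of miR-34c was 1.78 ± 0.12, the second in that order, and that of miR-34a was 0.13 ± 0.14. Of the non-irradiated miR-34c arrays, 3 of 4 in Ppard+/+ and 4 of 4 in Ppard-/- skin were set to the floor. Such tied values have little or no spread, which lowers the SE of miR-34c in every comparison. With a floor of 1 unit the miR-34c difference was 2.09 ± 0.27. For miR-34b-5p, 1 Ppard+/+ and 2 Ppard-/- arrays without UVB were set to the floor. Its difference was 1.96 ± 0.25 with the floor of 1 unit, a larger SE as well. The mean miR-34b-5p signal was 26.8 ± 8.07 units without and 100.9 ± 8.35 units after UVB (SD, n = 4), a ratio of 3.77. The mean miR-34c signal was 17.3 ± 5.63 and 71.2 ± 6.73 units, with 3 of 4 arrays detected without UVB. In the same comparison, 37 of 228 miRNAs passed limma at an adjusted p under 0.05 (16.2%), and 31 of 228 had all irradiated arrays above all others (13.6%), as 2 of the 3 members did. This contrast was part of what chose the members, so nothing is read from that count.

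In Ppard-/- skin the same pair was also higher after UVB. The log2 difference was 1.59 ± 0.18 for miR-34b-5p, 1.22 ± 0.12 for miR-34c and 0.45 ± 0.14 for miR-34a. These ranked 2, 6 and 31 from the top among 228. Mean miR-34b-5p signals were 20.1 ± 7.67 and 69.0 ± 8.01 units (ratio 3.43), and mean miR-34c signals 10.7 ± 4.38 and 45.5 ± 7.78 units, with 2 of 4 arrays detected without UVB. All 4 non-irradiated Ppard-/- arrays of miR-34c were set to the floor, so its difference depends on the floor, and with a floor of 1 unit it was 2.17. That of miR-34b-5p, with 2 of these arrays at the floor, was then 1.86 ± 0.25. Of all 228 miRNAs, 68 passed limma (29.8%) and 27 had every irradiated array above the rest (11.8%), with the same reservation about reading the members against it. The number that passed was 35 without non-irradiated Ppard-/- replicate 3, 43 without non-irradiated Ppard-/- replicate 1 and 45 without irradiated Ppard-/- replicate 1. All 4 skeletal muscle miRNAs of a marker list passed as lower in this comparison (median difference -1.04), with summed signals of 40655 to 50330 units without and 19464 to 24489 units after UVB. Their part in the differences of the members was not tested.

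The second question was whether the genotypes differed. In irradiated skin, the log2 difference, Ppard-/- minus Ppard+/+, was -0.55 ± 0.18 for miR-34b-5p, -0.66 ± 0.12 for miR-34c and -0.05 ± 0.14 for miR-34a. The first pair ranked 6 and 4 from the bottom of 228. The ratio of mean signals, Ppard-/- over Ppard+/+, was 0.684 for miR-34b-5p and 0.639 for miR-34c. In that comparison 5 of 228 miRNAs passed limma (2.19%), and 11 had all Ppard-/- arrays below all Ppard+/+ arrays (4.82%). With slide row as a covariate the difference of miR-34b-5p was -0.36, a value that rests on how rows behaved on the other slide.

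In non-irradiated skin the genotypes overlapped for all 3 members. The log2 difference was -0.38 ± 0.14 for miR-34a and -0.21 ± 0.18 for miR-34b-5p. With a floor of 1 unit that of miR-34b-5p was -0.45. No fold is given for miR-34c, since both groups were at or under the floor on most arrays. On this slide both genotypes lay in both rows, and the miR-34a difference was -0.48 within row 1 and -0.28 within row 2 (2 arrays per genotype each). With no normalization it was 0.082, in the other direction, and the median of all 228 tested miRNAs then shifted by 0.52. Of the 228, 0 passed limma (0%), 36 had an unadjusted p under 0.05, and 3 had all Ppard-/- arrays below all Ppard+/+ arrays (1.32%). Without Ppard+/+ replicate 2, 16 passed, and without Ppard-/- replicate 4, 4 passed. The summed signal of 4 skeletal muscle miRNAs was 40655 to 50330 units in these Ppard-/- arrays and 20453 to 41168 units in the Ppard+/+ arrays. Its part in the miR-34a difference was not tested.

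The third question was whether the response to UVB depended on genotype. The difference of the log2 responses, Ppard+/+ minus Ppard-/-, was -0.32 ± 0.20 for miR-34a, 0.34 ± 0.25 for miR-34b-5p and 0.56 ± 0.17 for miR-34c. The value of miR-34c depended on the floor and was -0.078 with a floor of 1 unit, where that of miR-34b-5p was 0.10. The signals of miR-34c without UVB were too near background for a ratio of the genotypes there. For miR-34b-5p the genotype ratio was 0.751 without and 0.684 after UVB. Of 228 miRNAs, 5 passed limma for this term (2.19%), and leaving out any 1 array gave between 1 and 12.

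**Figure D2:**
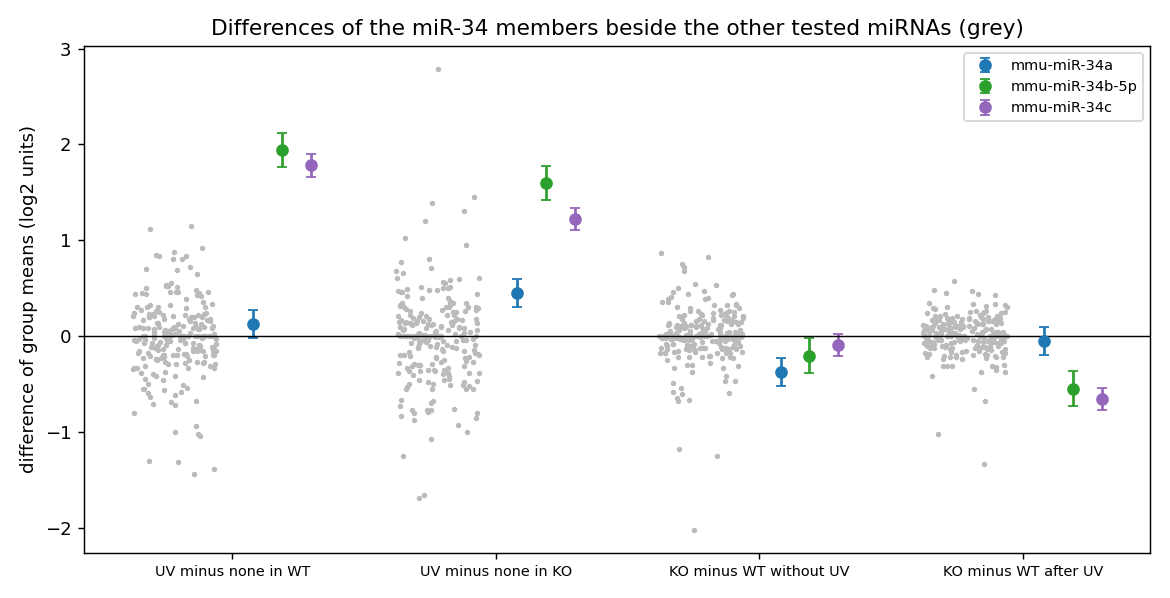
Differences of group means in log2 units (y axis) in 4 comparisons (x axis) for the 3 members (coloured points, bars ± SE from the fit) and the other tested miRNAs (grey points). miR-34b-5p and miR-34c lie at 1.94 and 1.78 for UV in WT and at -0.55 and -0.66 for KO minus WT after UV, while miR-34a lies nearer to 0 in both.

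Each member was read by 2 probes with 10 spots apiece per array, so 40 spots per probe and group. The stronger probe of miR-34b-5p had 40 spots well above background in irradiated Ppard+/+ skin, 37 in irradiated Ppard-/- skin, 21 in non-irradiated Ppard+/+ skin and 23 in non-irradiated Ppard-/- skin. Its weaker probe had 29, 2, 0 and 1 such spots in that order of groups. The stronger probe of miR-34c had 40, 21, 6 and 4, and its weaker probe 5, 0, 0 and 0. Both miRNAs were thus read mainly by 1 probe, and that of miR-34c was mostly not well above background without UVB. No spot of the 3 members was saturated.

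Ratios are given where at least 20 of 40 spots of a probe were well above background in both groups, a limit set after the values were seen. Scaled by each array's 75th percentile, the UVB ratio of the stronger miR-34b-5p probe was 3.30 in Ppard+/+ skin and 3.13 in Ppard-/- skin. Its ratio of Ppard-/- to Ppard+/+ was 0.733 without and 0.695 after UVB, and that of the stronger miR-34c probe was 0.629 after UVB. For miR-34a, all 40 spots of both probes were well above background in every group, except 39 for one probe in irradiated Ppard-/- skin. Its UVB ratio in Ppard+/+ skin was 0.956 by one probe and 1.05 by the other, on either side of no change. In Ppard-/- skin its UVB ratio was 1.37 and 1.49 in the same order of probes. The miR-34a ratio of Ppard-/- to Ppard+/+ was 0.744 and 0.728 without UVB, and 1.06 and 1.03 after UVB.

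**Figure D3:**
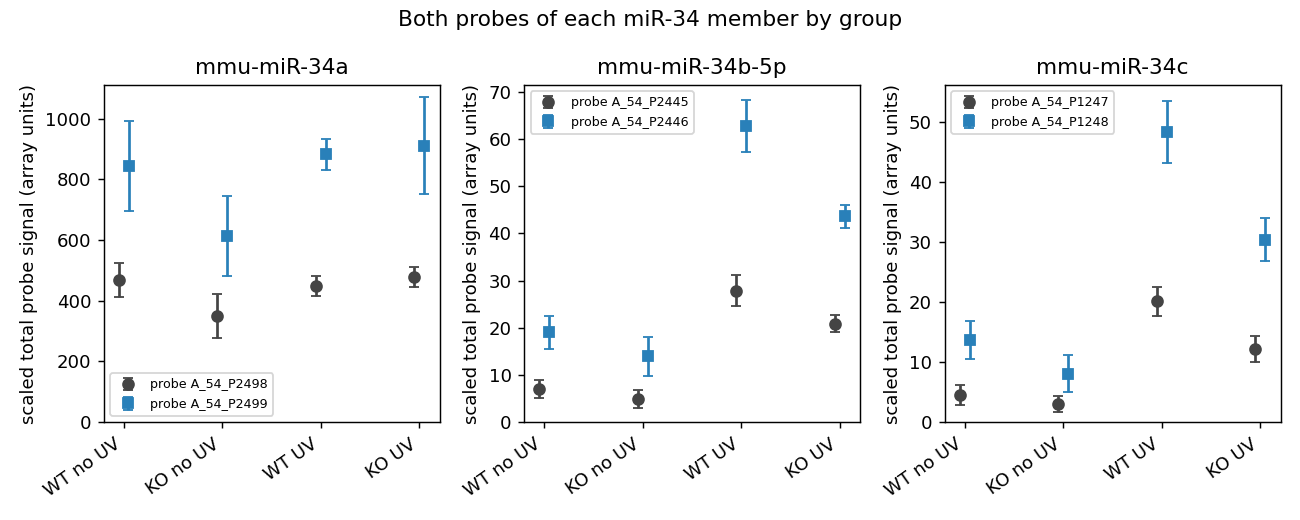
Total probe signal scaled by each array's 75th percentile (array units, axis from 0) for both probes of each member, by group (mean ± SD, n = 4). Both probes of miR-34b-5p and of miR-34c have their highest mean in irradiated WT skin. The weaker probe of miR-34b-5p was mostly not well above background outside that group. The weaker probe of miR-34c was mostly not well above background in every group.

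The opposite strands of the pair and the seed relatives were at background. miR-34b-3p, miR-34c* (the array's name for the 3p strand), miR-449a, miR-449b and miR-449c were detected on 0 of 16 arrays each, so none entered a test. Their mean normalized signals by group ranged from -7.00 units (miR-34c* in irradiated Ppard-/- skin) to 4.80 units (miR-449a in irradiated Ppard+/+ skin). The miR-449 family is also the marker list of multiciliated cells, and its summed signal was -14.2 to -7.13 units on the non-irradiated arrays and -5.21 to 6.12 units on the irradiated ones.

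Over the 16 arrays, the profile most like miR-34b-5p among 224 other tested mouse miRNAs was that of miR-34c (Pearson r = 0.98 on floored log2 signals). miR-31* (r = 0.90) and miR-31 (r = 0.88), the strands of one epithelial hairpin, came next. For miR-34c, miR-200c and miR-28 followed miR-34b-5p, both with r = 0.87. For miR-34a the nearest were miR-21 (r = 0.90), miR-331-3p (r = 0.88) and miR-140 (r = 0.83). The correlation of miR-34a with miR-34b-5p was 0.67 and with miR-34c 0.62. All of these describe arrays that share group, slide and normalization, and with group means removed the r of miR-34b-5p and miR-34c was 0.60 and that of miR-34c and miR-200c 0.21. The order then turned over for miR-34b-5p, whose r was 0.81 with miR-31, 0.79 with miR-31* and 0.66 with miR-34a. In these floored signals, 3 Ppard+/+ and 4 Ppard-/- arrays of miR-34c without UVB were tied at the floor. Whether the ties changed the order was not tested.

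Other miRNAs linked to p53 give the setting of the family. The list held 11 miRNAs whose transcription or processing p53 is known to raise and 6 of the miR-17-92 cluster, which p53 is known to repress. Of these 17, 15 entered the test, miR-215 was detected on 0 arrays, and no array name matched miR-605.

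After UVB in Ppard+/+ skin, 4 of the 15 passed limma, against 16.2% of all tested miRNAs. miR-200c, an inhibitor of the epithelial to mesenchymal transition, rose by 0.83 ± 0.14 (log2, SE; adjusted p = 0.000988), and miR-141 of the same family rose by 0.80 ± 0.14 (adjusted p = 0.00120). miR-15a, which targets Bcl2, rose by 0.30 ± 0.09 (adjusted p = 0.0270). miR-145, abundant in smooth muscle, fell by 0.93 ± 0.21 (adjusted p = 0.00963). In this comparison the 9 tested p53-raised miRNAs thus split into 3 higher, 1 lower and 5 that did not pass, with a median difference of 0.08 against 0 over all tested. None of the 6 p53-repressed miRNAs passed (median 0.24).

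In Ppard-/- skin, 10 of the 15 passed after UVB, against 29.8% of all tested miRNAs. Of the 9 p53-raised miRNAs 5 were higher and 2 lower (median 0.21 against 0). miR-200c (0.80, adjusted p = 0.00249), miR-192 (0.59, adjusted p = 0.0431), miR-141 (0.44, adjusted p = 0.0319), miR-15a (0.30, adjusted p = 0.0211) and miR-16 (0.21, adjusted p = 0.0244) were higher. miR-145 (-1.66, adjusted p = 0.000265) and miR-143 (-0.79, adjusted p = 0.0203) were lower. Of the 6 members of the miR-17-92 cluster, a group known to promote proliferation, 3 were higher and 0 lower (median 0.46). These were miR-18a (1.20, adjusted p = 0.0130), miR-20a (0.49, adjusted p = 0.0141) and miR-92a (0.42, adjusted p = 0.00498).

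The count of 10 fell to 5 without non-irradiated Ppard-/- replicate 3, to 6 without replicate 1 of either Ppard-/- group, and to 5 with slide row as a covariate. Between genotypes, with or without UVB, and in the interaction, 0 of the 15 passed limma. Of all tested miRNAs, 0% passed between genotypes without UVB, 2.19% after UVB and 2.19% in the interaction. With so few passing, nothing is read from this count. miR-200c and miR-141 also stand in the keratinocyte list. Its summed signal in Ppard+/+ skin was 21539 to 25477 units without and 26081 to 31708 units after UVB. In Ppard-/- skin it was 22225 to 27764 units without and 29320 to 43027 units after UVB. miR-143 and miR-145 also stand in the fibroblast and vessel list. That sum was 3056 to 4001 units without and 3660 to 4166 units after UVB in Ppard+/+ skin. In Ppard-/- skin, where both of these miRNAs passed as lower, it was 3842 to 4283 units without and 3462 to 3775 units after UVB. The fall of all 4 skeletal muscle miRNAs after UVB in Ppard-/- skin accompanied the count of 10, whereas 0 of them passed for UVB in Ppard+/+ skin. The part of these cell types in the differences was not tested.

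**Figure D4:**
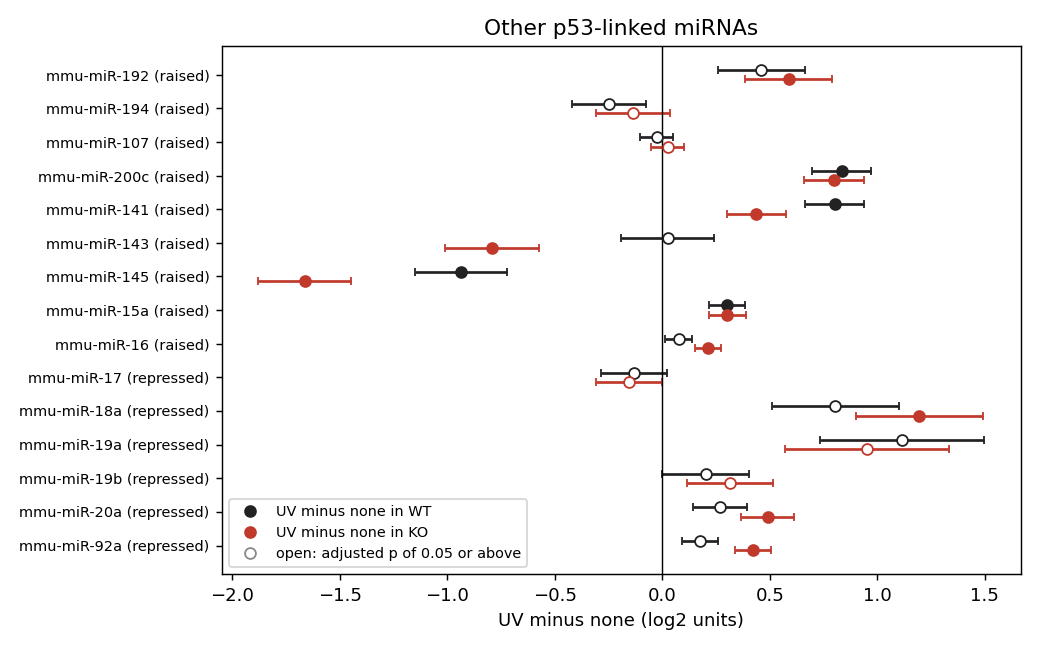
Log2 difference, irradiated minus not, with its SE for the 15 tested p53-linked miRNAs in WT (black) and KO (red) skin; filled points had a limma adjusted p under 0.05. miR-200c lies at 0.83 in WT and 0.80 in KO, and miR-145 at -0.93 and -1.66.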

How the data were processed

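Total RNA (100 ng) of dorsal skin was labelled with Cy3 and hybridized to 1-colour Agilent mouse miRNA arrays (11540 spots, 577 miRNAs). The authors deposited scanner files of background-subtracted intensity from Agilent Feature Extraction 9.5.3.1, with a total gene signal and a detection call per miRNA (coordinates mm9 per the file headers). They also deposited a series table of log2 values normalized, per the methods, by invariant set and quantiles, whose offset is not given in the sources used here. It served as an alternative.

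Here total gene signals were quantile normalized, floored at 19.4 units (the 5th percentile of detected signals, taken per array and then as a median) and log2 transformed. miRNAs detected on every array of at least 1 group were kept (228, of which 3 viral). limma 3.58.1 in R 4.3.3 fitted the 4 group means over 16 arrays, with Benjamini-Hochberg adjustment over the 228, and was tested on simulated data. The number of arrays limits the precision. The labels do not say that each array is a separate animal, so p-values measure the spread between arrays.

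The members and lists were chosen with earlier results of these data known. Named were the members, the other strands of the miR-34b and miR-34c hairpins and the miR-449 family (the rule's "mmu-miR-34" read as miR-34 itself and not miR-340 and above), p53-linked miRNAs that passed, and for each member the 3 miRNAs with the highest correlation. Marker lists were keratinocyte, skeletal muscle, leukocyte, erythrocyte, fibroblast and vessel, and multiciliated cell. Leukocyte sums ranged from 2285 to 4453 units and erythrocyte sums from 747 to 2184 units over all arrays. Sequences came from RefSeq, where 2 of the 3 members matched under a 5p name.

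Replicate numbers are shared by the groups. Same-numbered Ppard+/+ arrays with and without UVB had a positive r of their deviations in all 4 pairs (0.13 to 0.32). The same held for same-numbered irradiated arrays of both genotypes (0.011 to 0.32). Over all pairs of groups r ranged from -0.35 to 0.32. Any pairing is seen only in the data, and differently numbered arrays were not compared. Alternatives covered normalization, background, floor, detection filter, replicate block, slide row, threshold and leaving out each array.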

Additional observations from a re-analysis of the deposited data

Results flagged for a closer look

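One value lay apart from its group. The floored log2 signal of mmu-miR-34c in non-irradiated Ppard+/+ replicate 1 was 4.66, while the other 3 arrays of the group were all at the floor of 4.28, a gap equal to the whole range. In unfloored normalized signals the same array had 25.2 units against 12.8 to 17.5 units, and the gap was 0.62 of the range, under Dixon's critical value. Dixon's critical value is passed by chance in about 1 in 20 groups, a rate that does not hold where the floor ties the other values, as here. In all, 12 groups were looked at.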

How the results depend on the processing

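Over all alternatives, 497 of 595 recomputed values stayed within the spread between arrays, or for counts within 1.5 times, and 3 reversed. Differences are log2. Where no cause is given, the cause was not tested.

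With no normalization the median of all tested miRNAs shifted by 0.21 (UVB in Ppard+/+), -0.48 (UVB in Ppard-/-), 0.52 (genotype without UVB), -0.25 (genotype after UVB) and 0.77 (interaction). miR-34a was then 0.42 for UVB in Ppard+/+, 0.078 for UVB in Ppard-/-, -0.26 for genotype after UVB, and reversed to 0.082 for genotype without UVB and 0.34 for the interaction. miR-34b-5p was 1.35 for UVB in Ppard-/-, -0.80 for genotype after UVB and 0.81 for the interaction. miR-34c was 2.06 and 1.04 for UVB in Ppard+/+ and Ppard-/-, -1.003 for genotype after UVB and 1.02 for the interaction. Counts were 130 for UVB in Ppard-/- (5 p53-linked), 111 for genotype without UVB and 138 for the interaction.

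The floor set the values of miR-34c, whose signals without UVB were near background, so its values for genotype without UVB are not read as folds. With a floor of 1 unit it was 2.09 and 2.17 for UVB in Ppard+/+ and Ppard-/-, -0.74 for genotype without UVB, and reversed to -0.078 for the interaction, and miR-34b-5p was 1.86 for UVB in Ppard-/-. Counts were then 56 for UVB in Ppard+/+, 4 and 3 for genotype without and after UVB, and 2 for the interaction. In the authors' series table miR-34b-5p was 1.59 for UVB in Ppard+/+, and miR-34c was 1.57 and 1.45 for UVB in Ppard+/+ and Ppard-/-, -0.42 for genotype without UVB and 0.13 for the interaction, with counts of 58, 9, 3 and 2 in the order just given. Normexp with its offset, which compresses dim signals, gave 0.50 and 0.37 for miR-34b-5p and 0.43 and 0.27 for miR-34c for UVB in Ppard+/+ and Ppard-/-, -0.19 and -0.23 for genotype after UVB, and 0.16 for the interaction of miR-34c, with 7 p53-linked calls for UVB in Ppard+/+, 1 call for genotype without UVB and 0 for the interaction.

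Scaling to the 75th percentile gave 1.03 for miR-34c for UVB in Ppard-/- over either set of miRNAs. Over those detected on all arrays it left 6 p53-linked calls for UVB in Ppard-/-, 3 calls for genotype without UVB and 0 for the interaction, and over all miRNAs 2 for the interaction. The interaction had 0 calls with the invariant set and 3 with processed spot signals. With no filter on detection, which adds miRNAs that lie at the floor on every array of a group, counts were 410 and 29 for UVB in Ppard+/+ and Ppard-/- (7 and 5 p53-linked), 359 for genotype after UVB and 366 for the interaction. Among miRNAs detected on all 16 arrays they were 8 and 0 for genotype without and after UVB and 0 for the interaction. Slide row as a covariate gave -0.36 for miR-34b-5p for genotype after UVB, 31 calls for UVB in Ppard-/- (5 p53-linked), 1 for genotype after UVB and 0 for the interaction. The UVB slide alone gave 2 calls for genotype after UVB. At the methods' threshold (unadjusted p under 0.001 and 1.5-fold) counts were 15 and 16 for UVB in Ppard+/+ and Ppard-/- (2 p53-linked in Ppard-/-), 2 for genotype without UVB and 3 for the interaction.

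With the replicate block the p53-linked calls were 4 and 9 for UVB in Ppard+/+ and Ppard-/-, the member differences were as given, and only the count for the interaction, 1, moved by over 1.5 times.

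Leaving out 1 array at a time gave 1.06 to 1.45 for miR-34c for UVB in Ppard-/-. Counts ranged from 35 to 70 for UVB in Ppard-/- (5 to 11 p53-linked), from 0 to 16 for genotype without UVB and from 1 to 12 for the interaction. The dim signals of miR-34b-5p and miR-34c without UVB, a few times their error, limit what their differences can show.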
